A study of Mus musculus with 28 samples.

Results

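Transcripts of 9 genes of the B cell lineage were followed in sorted Treg cells from the spleens and brain tumors of mice. The genes were taken by symbol from the expression matrix, which lists 53801 features: Cd79a, Cd79b, Ms4a1, Pax5, Ighm, Ighd, Igkc, Iglc2 and Jchain. All 9 were found, and all 9 are described in every library, whether or not they passed a filter on low values. Mice carried orthotopic tumors of CT2A, a murine GBM cell line, in the forebrain, and were randomized when tumors measured 2 mm3. They received 4 doses of control IgG2a or of αPD1 + αGITR, antibodies against the checkpoint receptor PD1 and the co-stimulatory receptor GITR, at 250 ug per mouse every 3 days, and tissues were taken 2 days after the last dose. C57BL/6 mice of both sexes were used in the study, their age is not given in the sources used here, and the design text gives a different mouse for each spleen and each tumor. The study's account of this experiment names as many animals as there are GBM libraries, which is fewer than the splenic libraries. If some splenic libraries shared a mouse, p-values that use them would be too small. TCR+CD4+CD25hi CD127lo cells were sorted, with TCR+CD8+ cells directed to a dump channel. Of 28 libraries described, 27 were analyzed: splenic Treg cells after IgG2a (n = 7) and αPD1 + αGITR (n = 8), and GBM Treg cells after IgG2a (n = 5) and αPD1 + αGITR (n = 7).

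B cells recognize antigen through a surface immunoglobulin made of paired heavy and light chains, which signals through CD79A and CD79B. PAX5 maintains the identity of the lineage, and MS4A1, known as CD20, is a surface protein of mature B cells. Plasma cells secrete immunoglobulin and express the joining chain, which links IgM and IgA units into polymers. T cells carry a TCR in place of an immunoglobulin, so the gate used for sorting asks for a receptor that B cells lack.

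Values are TPM (transcript abundance scaled to a fixed total in each library), which are corrected for transcript length and can be compared between genes within a library. Depth cannot be read from TPM and is unknown, so a value of 0 is given without an upper limit. Between 7702 and 17460 features had a TPM above 1, and the 10 features with the highest mean took 31.9% to 78.3% of a library. Foxp3, the factor that defines Treg cells, was present in all 27 libraries, at 21.5 to 440 TPM. In bulk libraries, fewer cells of a type and less RNA per cell cannot be told apart.

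Of the 9 transcripts, only Ighm was abundant throughout. Ighm was the highest of the 9 in all 27 libraries, at a median of 163 TPM, and Igkc followed at a median of 3.61 TPM with a range of 0 to 414 TPM. The medians of the other 7 members over all libraries lay between 0 TPM (Iglc2) and 1.04 TPM (Cd79b). Their summed level had a median of 3.50 TPM after IgG2a and 9.53 TPM after αPD1 + αGITR in the spleen, and of 2.63 and 3.24 TPM in GBM.

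A few splenic libraries stood apart. In splenic library 79_b, from an IgG2a-treated mouse, all 9 members were above 1 TPM, and in splenic libraries 74_a and 80_a, from αPD1 + αGITR-treated mice, 7 were. No other library had more than 5 members above 1 TPM, and GBM libraries had between 1 and 5. Of the 9 members, 4 had their highest value in 79_b, 3 in 74_a and 1 (Jchain) in 80_a. The remaining one, Ighd, was highest in splenic library 70_c. By the summed level of the 7 members other than Ighm and Igkc, 70_c (31.5 TPM) lay above 80_a (20.9 TPM). Libraries 79_b, 74_a and 80_a were also those in which those 10 features took the smallest shares among splenic libraries (31.9%, 40.1% and 51.7%), and the T cell transcript Cd3e was the highest among splenic libraries there (650, 656 and 318 TPM). The part of this lower share in their B cell transcripts was not tested. After rescaling without those 10 features, Igkc was 608 TPM in 79_b, 158 TPM in 80_a and 47.7 TPM in 74_a, the highest values among splenic libraries, whose median was 6.33 TPM. Rescaled Ighm was highest in 79_b (1312 TPM), but 70_c (987 TPM) lay above 80_a (849 TPM) and 70_b (696 TPM) above 74_a (606 TPM). Rescaled Cd79a was 14.9 TPM in 79_b, 4.14 TPM in 80_a and 0.10 TPM in 74_a, and 8.18 TPM in 73_a. Some of the differences that move without these libraries are given below with and without them. Since the libraries were picked by the members' own values, nothing is read from a p without all 3. Nor is anything read from a p under 0.05 that appears only when a single library is left out.

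**Figure D1:**
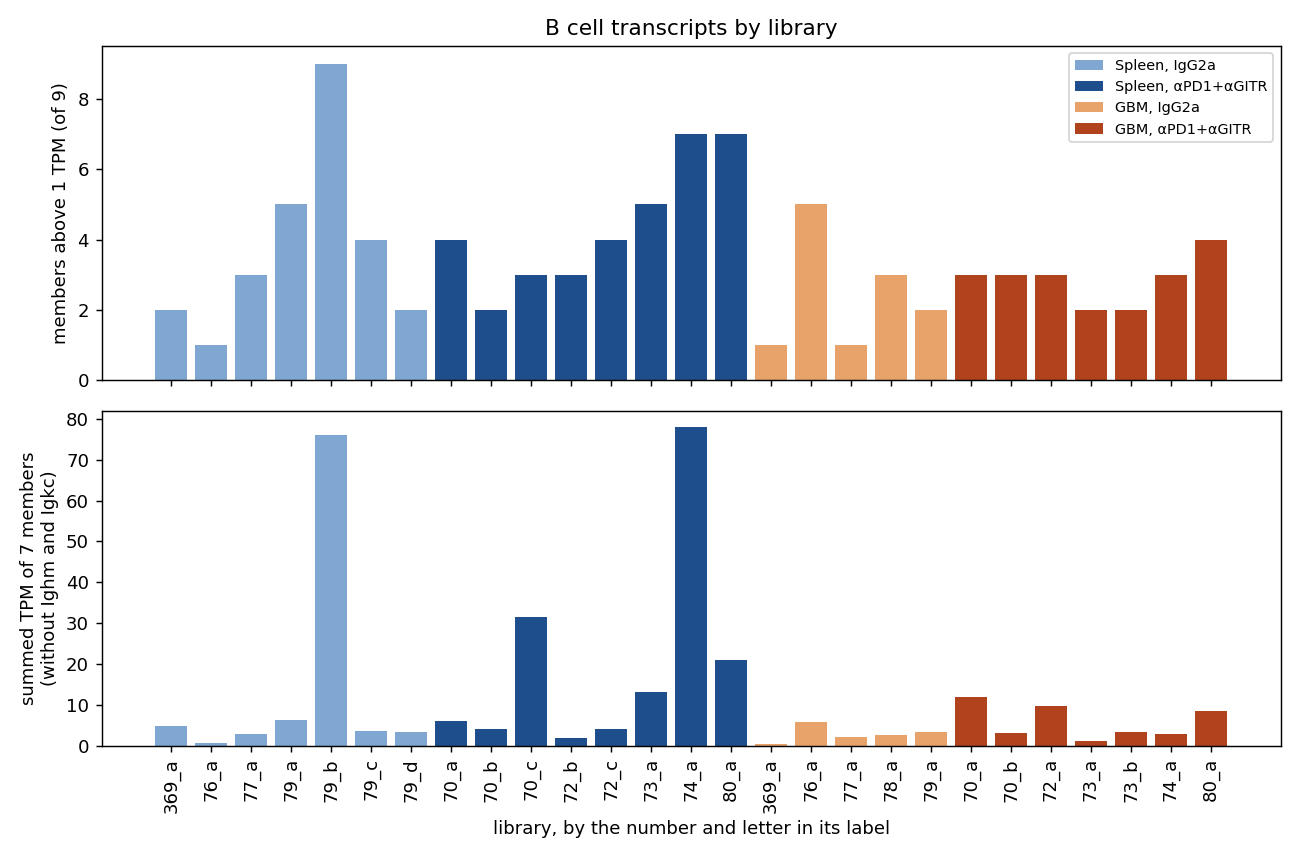
Number of the 9 members above 1 TPM (upper bars) and summed TPM of the 7 members other than Ighm and Igkc (lower bars) in each of the 27 libraries, named by the number and letter of their labels and coloured by group. Splenic libraries 79_b, 74_a and 80_a have 7 or more members above 1 TPM, and no GBM library has more than 5. The summed level is higher in splenic library 70_c (31.5 TPM) than in 80_a (20.9 TPM).

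There were 4 comparisons: GBM against splenic Treg cells within each treatment, and αPD1 + αGITR against IgG2a within each tissue. Genes with a mean above 10 TPM in at least 1 of the groups compared were tested with limma, and of the 9 members only Ighm and Igkc passed that filter, in each comparison. Between tissues after IgG2a, none of the 2 was called at an adjusted p under 0.05, where 0.569% of all genes tested were, and none had an unadjusted p under 0.05, where 9.93% did. Between tissues after αPD1 + αGITR, 1 was called (Igkc), against a background of 17.5% of all genes, and the same 1 had an unadjusted p under 0.05, as had 40.3% of all genes. With treatment in the spleen none was called against a background of 0%, and none had an unadjusted p under 0.05, where 2.53% did. With treatment in GBM none was called against a background of 0%, and 1 (Igkc) had an unadjusted p under 0.05, as had 22.3% of all genes. The other 7 members were compared singly by a two-sided exact permutation test of log2(TPM + 1), as were Ighm and Igkc, which makes 36 tests in all. Only the 2 tests of Igkc, in the comparisons named, gave p under 0.05. These p are not adjusted for the 36 tests, and no share of all genes under 0.05 is given for this test. In none of the 4 comparisons did any of the 9 members separate the groups without overlap. The share of tested genes that did so was 1.48% between tissues after IgG2a, 3% between tissues after αPD1 + αGITR, 0.0151% with treatment in the spleen and 2.19% with treatment in GBM.

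**Figure D2:**
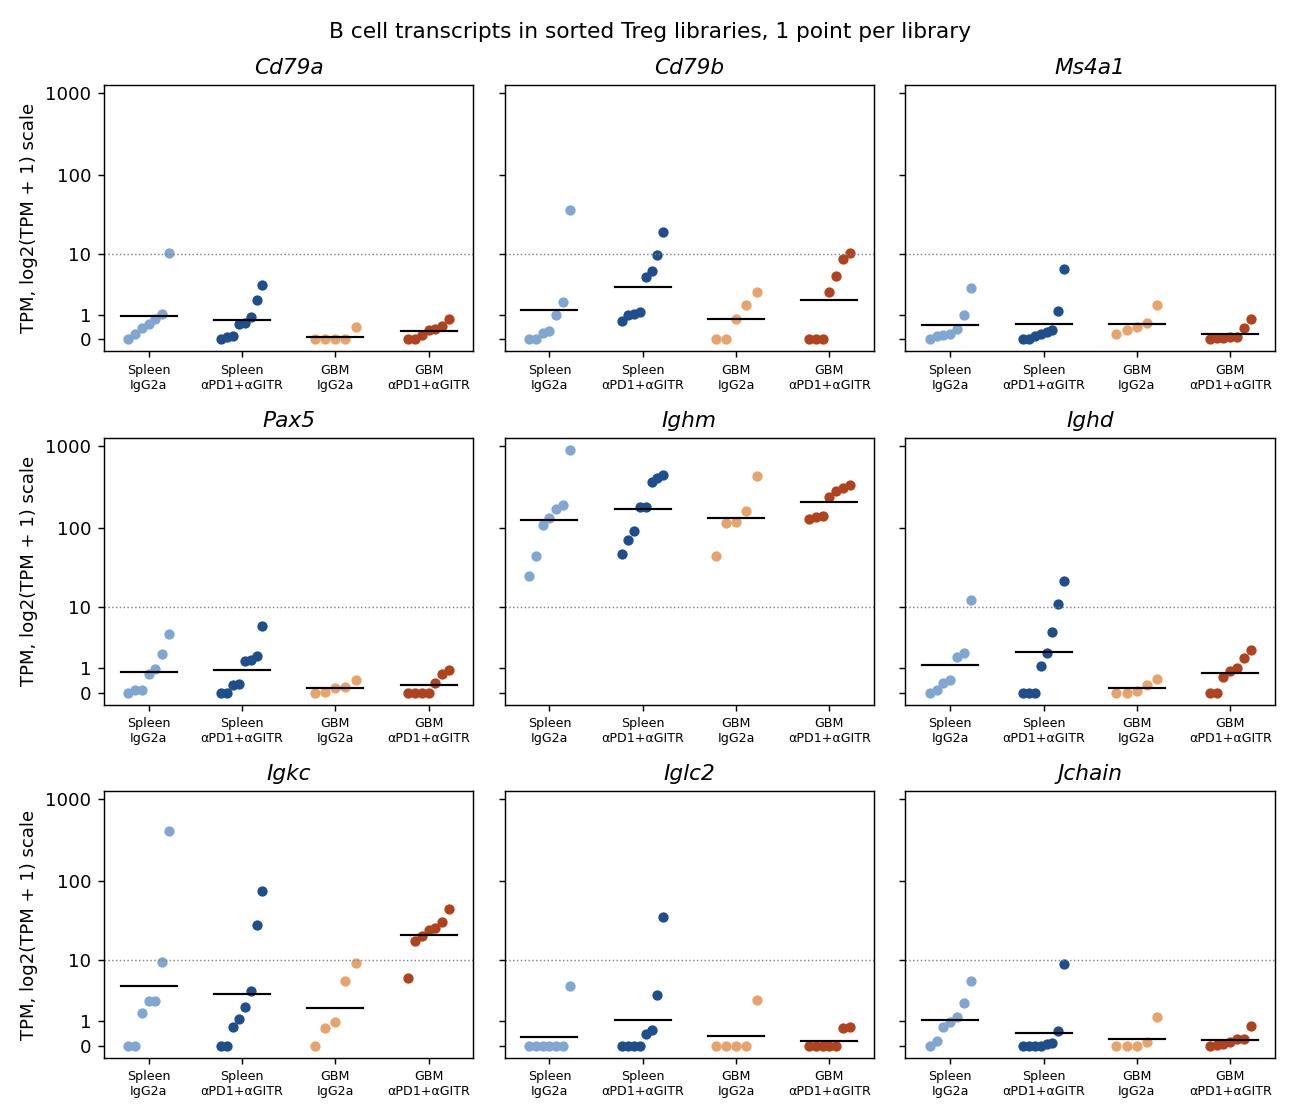
TPM of each of the 9 members in splenic and GBM Treg cells after IgG2a or αPD1 + αGITR, on a log2(TPM + 1) scale, with 1 point per library, horizontal lines at the mean of log2(TPM + 1) and a dotted line at 10 TPM. Ighm lies between 25.6 and 894 TPM in all 27 libraries, whereas Igkc is above 10 TPM in 6 of the 7 GBM libraries after αPD1 + αGITR and in 3 of the other 20.

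Cd79a and Cd79b encode the signalling chains of the B cell receptor. In splenic Treg cells after IgG2a, Cd79a ran from 0 to 10.2 TPM with a median of 0.53 TPM, and in splenic Treg cells after αPD1 + αGITR from 0 to 3.58 TPM with a median of 0.545 TPM. In GBM Treg cells after IgG2a it was 0 TPM in 4 of 5 libraries and 0.42 TPM in 78_a. In GBM Treg cells after αPD1 + αGITR it ran from 0 to 0.79 TPM with a median of 0.31 TPM. The high splenic values were those of 79_b (10.2 TPM), 73_a (3.58 TPM) and 80_a (2.00 TPM), and the ranges of all 4 groups overlapped. The difference of GBM from splenic Treg cells after IgG2a was -0.84 on the log2(TPM + 1) scale (two-sided exact permutation p = 0.0821), and p ran from 0.0216 (without splenic library 79_a) to 0.254 (pseudocount of 10) under the alternatives, with 0.0429 for a pseudocount of 0.1 and all others above 0.05. Without 79_b, the highest library, the difference was -0.42 (exact permutation p = 0.0779). The treated tissues differed by -0.43 (exact permutation p = 0.211).

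Cd79b was the highest of the 7 less abundant members. It ran from 0 to 36.5 TPM with a median of 0.27 TPM in the spleen after IgG2a, and from 0.65 to 19.2 TPM with a median of 2.95 TPM after αPD1 + αGITR. In GBM libraries after IgG2a it was 0, 2.79, 0.79, 1.61 and 0 TPM, and after αPD1 + αGITR it ran from 0 to 10.2 TPM with a median of 2.79 TPM. GBM libraries 70_a (10.2 TPM) and 72_a (8.40 TPM) thus had more Cd79b than most splenic libraries while their Cd79a was 0.35 and 0.31 TPM. With treatment in the spleen, Cd79b differed by 0.92 (exact permutation p = 0.288). Without splenic library 79_b the difference was 1.59 (p = 0.0193, exact permutation), and without the 3 splenic libraries that stood apart it was 1.11. Library 79_b holds the highest Cd79b value, so nothing is read from the p without it. In GBM the treatment difference was 0.77 (exact permutation p = 0.342).

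Ms4a1, which encodes CD20, had a median of 0.17 TPM over all libraries and exceeded 1 TPM in 4 of 27. Those were splenic libraries 74_a (6.25 TPM), 79_b (3.20 TPM) and 72_c (1.19 TPM) and GBM library 76_a (1.64 TPM). In GBM Treg cells after IgG2a it was 0.16, 1.64, 0.41, 0.31 and 0.60 TPM, and after αPD1 + αGITR it ran from 0 to 0.77 TPM with a median of 0.06 TPM. The 2 GBM groups overlapped, with 5 of 7 libraries after αPD1 + αGITR below every library after IgG2a, and differed by -0.41 (exact permutation p = 0.0808). The p was 0.0492 with a pseudocount of 0.1, 0.0455 after rescaling without the 10 most abundant features, 0.0485 without GBM library tumor_369_a and 0.00866 without GBM library 70_a, always with the lower values after αPD1 + αGITR.

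Pax5, the lineage factor, was above 1 TPM in 6 of 15 splenic libraries and in none of 12 GBM libraries. Its highest values were 5.42 TPM in 74_a and 4.23 TPM in 79_b. GBM libraries ranged from 0 to 0.90 TPM in both treatment groups together, within the range of the spleen. The tissues differed by -0.64 after IgG2a (exact permutation p = 0.157) and by -0.64 after αPD1 + αGITR (exact permutation p = 0.115), so neither p was under 0.05. The differences were -0.38 without 79_b and -0.26 without 74_a and 80_a, respectively.

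Ighm encodes the constant region of the IgM heavy chain and lies at chr12:113418558-113422730 on the minus strand of GRCm38. In splenic Treg cells it averaged 224 ± 301 TPM (SD, n = 7) after IgG2a and 223 ± 159 TPM (SD, n = 8) after αPD1 + αGITR. Its range was 25.6 to 894 TPM (median 133 TPM) and 48.2 to 441 TPM (median 182 TPM), respectively. In GBM libraries after IgG2a it was 436, 118, 114, 45.2 and 163 TPM, and after αPD1 + αGITR it ran from 129 to 340 TPM with a median of 242 TPM. The highest library of each IgG2a group was 79_b in the spleen and tumor_369_a in GBM, and all 4 groups overlapped widely. Ighm did not share any run of 30 bases with a transcript of another gene in the annotation used.

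None of the tissue or treatment differences of Ighm passed a test. After IgG2a, GBM minus spleen was 0.09 on the log2(TPM + 1) scale (limma, 95% interval -1.58 to 1.75, adjusted p = 0.976). After αPD1 + αGITR it was 0.31 (-0.77 to 1.38, limma adjusted p = 0.648). The direction of both turned under quantile normalization, under TMM-type factors and after rescaling without the 10 most abundant features. αPD1 + αGITR minus IgG2a was 0.42 in the spleen (-1.03 to 1.87, limma adjusted p = 1.000) and 0.64 in GBM (-0.40 to 1.68, limma adjusted p = 0.435). Without GBM library tumor_369_a, in which only 7702 features were above 1 TPM, the GBM difference was 1.06 (exact permutation p = 0.0333). The intervals leave room for differences of more than 1 log2 unit in each comparison.

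Ighd, whose constant region exons follow those of Ighm in the heavy chain locus, was much lower. It exceeded 10 TPM in 3 splenic libraries, at 21.7 TPM in 70_c, 12.5 TPM in 79_b and 10.9 TPM in 74_a, where Ighm was 441, 894 and 363 TPM. In the spleen it ran from 0 to 12.5 TPM with a median of 0.42 TPM after IgG2a and from 0 to 21.7 TPM with a median of 1.58 TPM after αPD1 + αGITR. In GBM it was 0.25, 0, 0.48, 0 and 0.04 TPM after IgG2a, and ran from 0 to 2.30 TPM with a median of 0.82 TPM after αPD1 + αGITR. In GBM, 5 of 7 libraries after αPD1 + αGITR were above every library after IgG2a, with 73_a and 74_a at 0, and the difference was 0.61 (exact permutation p = 0.0859). Without 73_a or without 74_a it was 0.74 (p = 0.0325 in either case, exact permutation).

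Igkc was the only member with a p under 0.05 in the main tests between groups, and limma called it in 1 comparison. It encodes the constant region of the kappa light chain in a single exon at chr6:70726435-70726966 on the plus strand of GRCm38, within the span of the lincRNA gene Gm30211. Gm30211 itself did not exceed 0.76 TPM in any library. The first 300 of the 320 coding bases of the Igkc constant region are shown, as annotated in GENCODE M21. The only differences with a p under 0.05 in the main tests rest on this gene. It shares no run of 30 bases with transcripts of other genes.
Igkc: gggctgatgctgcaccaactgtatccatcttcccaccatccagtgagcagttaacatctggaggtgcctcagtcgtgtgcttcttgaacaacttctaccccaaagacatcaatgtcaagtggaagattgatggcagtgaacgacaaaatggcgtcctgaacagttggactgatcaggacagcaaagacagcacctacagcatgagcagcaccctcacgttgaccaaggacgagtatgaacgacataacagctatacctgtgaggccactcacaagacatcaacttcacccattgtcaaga

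In GBM Treg cells after IgG2a, Igkc was 0.93, 9.09, 0.64, 5.08 and 0 TPM, a mean of 3.15 ± 3.88 TPM (SD, n = 5). After αPD1 + αGITR it was 30.8, 45.7, 24.7, 18.0, 20.6, 26.3 and 5.74 TPM, a mean of 24.5 ± 12.3 TPM (SD, n = 7). Thus 6 of 7 libraries after αPD1 + αGITR lay above all 5 libraries after IgG2a, and the exception, 80_a, lay within their range. The difference was 2.97 on the log2(TPM + 1) scale, with a two-sided exact permutation p of 0.00253, where the smallest p the design allows is 0.00126. With limma over 7848 genes the unadjusted p was 0.000513, the 27th lowest rank, the 95% interval 1.47 to 4.47 and the adjusted p 0.0977, and no gene passed an adjusted p of 0.05. The median difference of all genes tested was 0.62. Igkc passed the filter in this comparison through the αPD1 + αGITR group alone.

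The adjusted p of Igkc in this comparison was between 0.0482 (with library weights) and 0.416 under the alternatives tried, and between 0.0646 and 0.199 when a library was left out. The exact permutation p was between 0.00216 and 0.00649 when any single library was left out. The 12 macrophage and microglia markers summed to 50.1 to 4371 TPM after IgG2a and 36.1 to 1852 TPM after αPD1 + αGITR, and the 7 erythroid markers to 1.30 to 2371 TPM and 0.30 to 201 TPM. Of these, 9 and 3 passed the filter and none was called by limma or had an unadjusted p under 0.05. In the 7 GBM libraries after αPD1 + αGITR, Cd79a, Ms4a1 and Pax5 did not exceed 0.90 TPM and Jchain did not exceed 0.73 TPM. Of the other members, Cd79b reached 10.2 TPM and was 0 TPM in 3 of the 7, and Ighd reached 2.30 TPM. Igha, the IgA heavy chain, reached 8.21 TPM. Of the plasma cell genes 5 of 9 passed the filter, of the other B cell surface genes 5 of 23 and of the B cell transcription factors 4 of 10. None was called by limma, and 2 of each list had an unadjusted p under 0.05, against 22.3% of all genes, all 6 higher after αPD1 + αGITR: Txndc5 (2.65) and Prdm1 (2.02), Cd37 (1.02) and Tnfrsf13b (1.68), and Irf8 (1.77) and Pou2f2 (1.71). Pou2f2 passed the filter through the αPD1 + αGITR group alone (4.67 TPM on average after IgG2a and 13.8 TPM after αPD1 + αGITR). The plasma cell list summed to 173 to 263 TPM after IgG2a and 179 to 412 TPM after αPD1 + αGITR. The part of any other cell type in the Igkc difference was not tested.

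In the spleen Igkc varied from 0 to 414 TPM after IgG2a, with a median of 2.46 TPM, and from 0 to 76.4 TPM after αPD1 + αGITR, with a median of 1.56 TPM. The highest values were those of 79_b (414 TPM), 80_a (76.4 TPM) and 74_a (28.6 TPM), and 12 of 15 splenic libraries were below 10 TPM. The treatment difference of Igkc in the spleen was -0.33 (limma, 95% interval -2.66 to 2.00, adjusted p = 1.000; exact permutation p = 0.819), and the direction turned to 0.71 without 79_b. The treatment effect on Igkc in GBM exceeded that in the spleen by 3.30 (limma interaction, 95% interval 0.32 to 6.28, adjusted p = 0.370). Its unadjusted p was 0.0309 by limma, below 0.05 as for 12.2% of all genes, and no gene passed after adjustment (0%).

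GBM and splenic Treg cells after αPD1 + αGITR differed in Igkc by 2.39 (limma, 95% interval 0.70 to 4.08, adjusted p = 0.0458; exact permutation p = 0.0270). Of the 8 splenic libraries, 2 (74_a and 80_a) were above the lowest GBM library. This call was close to the threshold. Of 15 fits that left out 1 library, only those without splenic 73_a, 74_a or 80_a or GBM 80_a kept an adjusted p under 0.05, and the range was 0.00850 to 0.0935. Under other choices of scaling, filter, pseudocount and design it was 0.0207 to 0.459, and only library weights kept it under 0.05. The difference itself ran from 2.09 to 2.99 when a library was left out, and was 0.95 at its lowest under those other choices. By exact permutation the p exceeded 0.05 without splenic library 70_a or 70_c (p = 0.0519 for each). Without 74_a and 80_a, which hold the 2 highest splenic values, the difference was 3.55, and Igkc passed the filter through GBM alone. Over all genes the median difference in this comparison was 0.95, toward GBM, and 15.8% of all genes were called higher in GBM. Erythroid transcripts summed to 25.4 to 28414 TPM in the spleen and 0.30 to 201 TPM in GBM after αPD1 + αGITR, and macrophage and microglia transcripts to 14.2 to 263 TPM and 36.1 to 1852 TPM. Their part in the difference was not tested. After IgG2a the tissues differed in Igkc by -0.91 (limma, 95% interval -3.31 to 1.49, adjusted p = 0.770; exact permutation p = 0.655). Without 79_b the direction turned, to 0.13 (exact permutation p = 0.879), and Igkc no longer passed the filter.

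**Figure D3:**
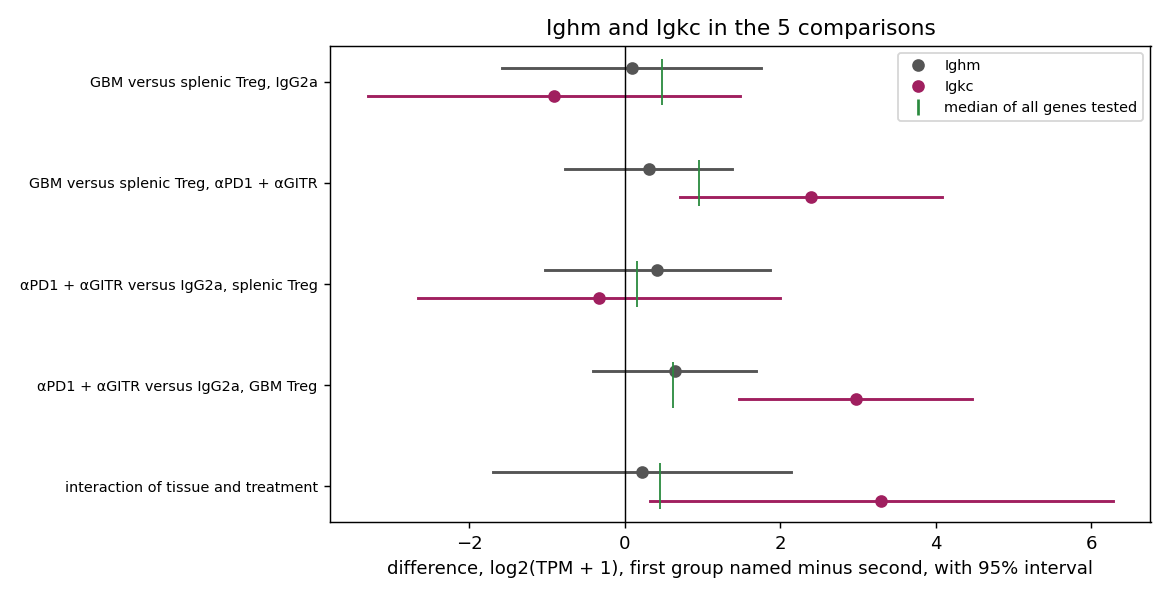
Differences of Ighm and Igkc on the log2(TPM + 1) scale in the 4 comparisons and for the interaction (treatment effect in GBM minus that in the spleen), as points with 95% limma intervals, and the median difference of all genes tested as vertical marks. The Igkc intervals exclude 0 between tissues after αPD1 + αGITR (0.70 to 4.08), with treatment in GBM (1.47 to 4.47) and for the interaction (0.32 to 6.28), and every Ighm interval includes 0.

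The light chain constant region was next set against the variable (V) features, since a rearranged light chain transcript holds both. The matrix lists 185 Ighv, 160 Igkv and 3 Iglv features. In GBM Treg cells after αPD1 + αGITR, the Igkv features summed to 16.0 ± 11.1 TPM (SD, n = 7), and the ratio of Igkc to this sum had a median of 1.31 and a range of 0.268 to 8.46. In the other 20 libraries the ratio did not exceed 0.875, and its median was 0.0690 and 0.0307 in the spleen after IgG2a and αPD1 + αGITR and 0.0183 in GBM after IgG2a. Only GBM libraries after αPD1 + αGITR, 4 of 7, had more Igkc than summed Igkv. In 70_b, Igkc was 45.7 TPM and the Igkv sum 5.40 TPM, with no single Igkv feature above 1.92 TPM. In 70_a Igkc was 30.8 TPM and the Igkv sum 5.34 TPM. These ratios were chosen for description after values had been seen and were not tested. V and constant features differ in length and in how reads can be placed, so a ratio compares libraries and is no count of chains.

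**Figure D4:**
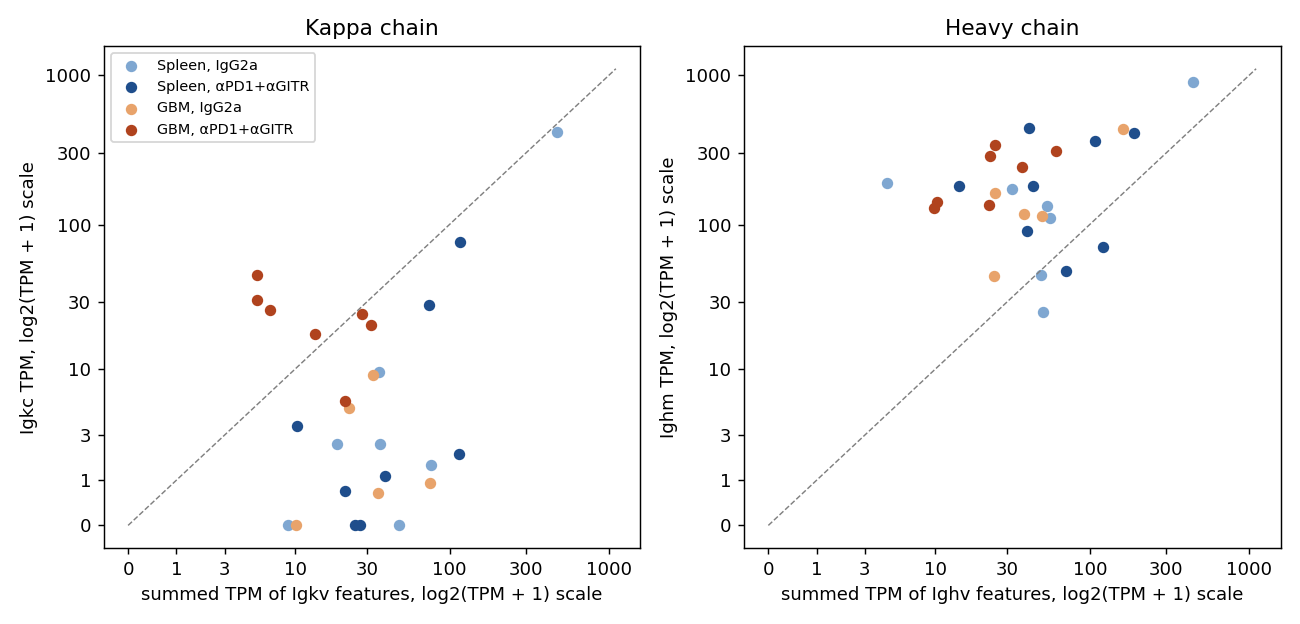
Igkc against the summed Igkv features (left) and Ighm against the summed Ighv features (right), in TPM on log2(TPM + 1) scales, with 1 point per library coloured by group and a dashed line of equal values. In 4 of 7 GBM libraries after αPD1 + αGITR Igkc exceeds the Igkv sum, and in the other 20 libraries the ratio is 0.875 at most.

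For the heavy chain, Ighm exceeded the Ighv sum in 23 of 27 libraries, and the ratio had a median of 12.4 in GBM Treg cells after αPD1 + αGITR, 2.69 in GBM after IgG2a and 2.01 and 2.82 in the splenic groups. The highest ratio, 42.7, was in splenic library 76_a, where Ighm was 191 TPM and all Ighv features together 4.46 TPM. Ighm was thus present at more than 100 TPM in libraries with little V signal.

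In splenic library 79_b the V features reached their highest sum, 928 TPM. There Ighv1-78 was at 399 TPM, 89.8% of the Ighv sum of 444 TPM, and Igkv15-103 was at 399 TPM, 84.2% of the Igkv sum of 474 TPM. The next highest features of those families in the library were at 9.12 and 33.9 TPM. Ighv1-78 shares 34.9% of its runs of 30 bases with other genes, Ighv1-85 first among them, so its reads can be divided with theirs, and Igkv15-103 shares none. The next highest share of a single Ighv feature was 76.3%, of Ighv1-83 in GBM library tumor_79_a, at 19.0 TPM of an Ighv sum of 24.8 TPM. For Igkv it was 55.6%, of Igkv6-32 in splenic library 79_d, at 42.8 of 76.9 TPM. In 79_b, Ighm was 894 TPM and Igkc 414 TPM. Outside 79_b, Ighv1-78 was above 0 TPM in 74_a alone (2.90 TPM) and Igkv15-103 in splenic library 70_c alone (5.51 TPM). In the other 26 libraries the summed V features lay between 13.5 and 314 TPM. Both V features are annotated as functional immunoglobulin V segments, Ighv1-78 at chr12:115868773-115869227 on the minus strand and Igkv15-103 at chr6:68437440-68437925 on the plus strand of GRCm38. The first 300 bases of each reference coding sequence (GENCODE M21) are given because this pair carries most of the V signal of the library.
Ighv1-78: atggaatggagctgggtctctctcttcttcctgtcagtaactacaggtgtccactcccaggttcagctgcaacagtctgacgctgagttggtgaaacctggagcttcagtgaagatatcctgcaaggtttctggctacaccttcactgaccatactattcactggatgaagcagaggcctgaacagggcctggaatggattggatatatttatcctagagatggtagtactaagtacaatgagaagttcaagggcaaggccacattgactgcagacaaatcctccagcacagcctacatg
Igkv15-103: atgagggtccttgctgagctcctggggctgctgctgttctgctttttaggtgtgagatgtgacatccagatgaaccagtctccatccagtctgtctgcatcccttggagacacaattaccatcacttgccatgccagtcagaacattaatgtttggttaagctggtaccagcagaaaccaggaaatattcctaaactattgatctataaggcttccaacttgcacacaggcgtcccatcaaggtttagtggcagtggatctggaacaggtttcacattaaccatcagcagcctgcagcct
Library 79_b was also the one with the highest Cd79a, Cd79b and Pou2af1 (15.2 TPM), a coactivator of immunoglobulin transcription. In libraries 80_a and 74_a the highest Ighv and Igkv features took smaller shares. They were Ighv1-19 at 78.5 TPM (41.2% of the Ighv sum) and Igkv4-59 at 44.7 TPM (38.6% of the Igkv sum) in 80_a, and Ighv5-9-1 at 32.9 TPM (30.7%) and Igkv4-55 at 11.3 TPM (15.3%) in 74_a. In 74_a the lambda family was led by 1 feature, Iglv2, at 42.1 TPM of an Iglv sum of 44.0 TPM (95.6%).

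Iglc2 encodes a constant region of the lambda light chain and was 0 TPM in 19 of 27 libraries. It reached 36.1 TPM in splenic library 74_a, where Iglv2 was 42.1 TPM, 4.34 TPM in 79_b, 3.17 TPM in 70_a and 2.63 TPM in GBM library 79_a, and was below 1 TPM elsewhere. No comparison of groups gave an exact permutation p under 0.05 (0.361 to 1.000). Iglc2 shared 20.4% of its runs of 30 bases with other genes, mostly with Iglc3, another lambda constant gene of the same chromosome, so reads of both can be divided between them. The reference coding sequences of both, as annotated in GENCODE M21, are identical at 303 of 315 aligned positions (96.2%). The first 300 aligned positions, which hold all 12 that differ, are shown with the differing ones in capitals, one of which is a first base that Iglc3 lacks.
Iglc2: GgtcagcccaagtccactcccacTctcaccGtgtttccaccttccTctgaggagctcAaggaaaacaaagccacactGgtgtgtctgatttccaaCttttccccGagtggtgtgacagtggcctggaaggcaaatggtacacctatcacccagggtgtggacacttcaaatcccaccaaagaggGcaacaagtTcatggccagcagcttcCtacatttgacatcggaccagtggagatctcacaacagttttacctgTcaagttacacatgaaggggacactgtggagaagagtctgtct
Iglc3: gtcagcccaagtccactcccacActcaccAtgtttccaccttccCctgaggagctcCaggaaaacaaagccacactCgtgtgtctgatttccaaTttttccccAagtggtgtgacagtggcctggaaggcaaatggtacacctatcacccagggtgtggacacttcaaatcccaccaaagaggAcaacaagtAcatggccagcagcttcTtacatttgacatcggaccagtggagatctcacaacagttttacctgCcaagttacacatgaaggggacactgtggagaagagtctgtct
The 2 features did not follow each other. GBM libraries tumor_369_a and tumor_79_a, both after IgG2a, had 54.8 and 30.5 TPM of Iglc3 and 0 and 2.63 TPM of Iglc2, whereas splenic library 74_a had 36.1 TPM of Iglc2 and 0 TPM of Iglc3. The sum of Iglc1, Iglc2 and Iglc3 was 0 TPM in 12 of 27 libraries.

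Jchain, the joining chain of secreted IgM and IgA, was 0 TPM in 9 of 27 libraries and above 1 TPM in 5. Splenic libraries after IgG2a ran from 0 to 5.05 TPM with a median of 0.92 TPM. Those after αPD1 + αGITR were at or below 0.50 TPM in 7 of 8 cases, with a median of 0.025 TPM, and 80_a stood at 8.82 TPM. The splenic difference with treatment was -0.55 (exact permutation p = 0.332) and was -0.95 (p = 0.00874, exact permutation) without 80_a, which holds the highest value, and -0.69 without the 3 libraries that stood apart. Nothing is read from the p without 80_a, since that library was singled out by its Jchain value. In GBM, Jchain was 0, 1.26, 0, 0.12 and 0 TPM after IgG2a and ran from 0 to 0.73 TPM after αPD1 + αGITR. These groups overlapped and differed by -0.04 (exact permutation p = 0.833).

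Across the 15 splenic libraries, the other 8 members were compared with Cd79a on the log2(TPM + 1) scale. None of the 8 correlations had an adjusted permutation p under 0.05. The strongest was that of Igkc, with a Pearson r of 0.71 (permutation p = 0.00846, adjusted p = 0.0677) and a Spearman rho of 0.49 (permutation p = 0.0676, adjusted p = 0.541). The Pearson r was 0.47 without 79_b and 73_a, the libraries farthest from the median of Cd79a. For Cd79b r was 0.56 (permutation p = 0.0289, adjusted p = 0.115) and rho 0.38 (permutation p = 0.162), and r was 0.04 without these libraries. Within the 7 libraries after IgG2a, which include 79_b, the r of Cd79b was 0.99 and its rho 0.94, and within the 8 after αPD1 + αGITR they were -0.04 and -0.14. The pooled relation of Cd79a and Cd79b did not hold without these 2 libraries, and whether it differed between the groups was not tested.

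Levels of further B cell genes varied by list. Of 23 other surface and signalling genes, 5 averaged above 10 TPM over all libraries: Cd37, a tetraspanin, Tnfrsf13b, the receptor TACI, Cxcr5, a homing receptor, Cd72 and Ralgps2. Cd37 averaged 447 TPM in GBM Treg cells after αPD1 + αGITR and was above 10 TPM in all 27 libraries, whereas Vpreb3 averaged 0.303 TPM over all libraries. Between tissues after αPD1 + αGITR, 6 of the 23 passed the filter, of which Cd37 (1.58, adjusted p = 0.0202) and Tnfrsf13b (2.47, adjusted p = 0.0145) were higher and Cxcr5 (-4.54, adjusted p = 8.4e-05) was lower in GBM by limma. The median difference of these 6 was 1.06, against 0.95 over all genes. These 3 calls compare with 17.5% of all genes. Cxcr5 passed the filter through the spleen alone, where it averaged 49.0 TPM against 1.36 TPM in GBM. In the other comparisons none of those that passed the filter was called by limma. An unadjusted p under 0.05 was found for 1 of 6 between tissues after IgG2a (9.93% of all genes), for 0 of 5 with treatment in the spleen (2.53%) and for 2 of 5 with treatment in GBM (22.3%).

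Of 10 transcription factors used by B cells, Irf8, Pou2f2 and Spi1 averaged above 10 TPM. Between tissues after αPD1 + αGITR, 3 of the 10 passed the filter, of which Irf8 was higher (1.69, limma adjusted p = 0.0345) and Pou2f2 lower (-1.83, limma adjusted p = 0.0382) in GBM. These 2 calls of 3 and the 2 of 3 plasma cell calls that follow compare with 17.5% of all genes called and 15.8% called higher in GBM. Ebf1, an early B lineage factor, averaged 0.804 TPM. Of 9 plasma cell genes, Xbp1, Txndc5 and Prdm1 averaged above 10 TPM, and of these 3, which alone passed the filter, Prdm1 (2.47, adjusted p = 0.0220) and Txndc5 (2.26, adjusted p = 0.0433) were higher in GBM in the same limma comparison. Prdm1 passed the filter through GBM alone, where it averaged 44.2 TPM against 8.10 TPM in the spleen. Mzb1, Derl3 and Tnfrsf17, which encodes the plasma cell receptor BCMA, averaged under 1 TPM. Between tissues after IgG2a, 4 of the 10 transcription factors and 5 of the 9 plasma cell genes passed the filter and none was called by limma. An unadjusted p under 0.05 was found for 1 of each, against 9.93% of all genes: Pou2f2 (-3.52, limma adjusted p = 0.0545) and Xbp1 (2.15, limma adjusted p = 0.321). In this comparison Pou2f2 passed the filter through the spleen alone, where it averaged 53.6 TPM against 4.67 TPM in GBM. With treatment in the spleen 3 and 2 passed the filter, and none was called or had an unadjusted p under 0.05. Cd37, Irf8 and Prdm1, among others of these lists, are not restricted to B cells and are also used by T or myeloid cells. Xbp1 was above 10 TPM in 26 libraries and Tnfrsf13b in 20, against 1 for Cd79a. Which cells carry the transcripts of these lists was not tested. All 6 genes of early B cell stages, Rag1, Rag2, Dntt, Igll1, Vpreb1 and Vpreb2, averaged under 1 TPM.

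Of 8 other immunoglobulin constant genes none averaged above 10 TPM over all libraries. Igha was above 1 TPM in 6 of 7 GBM libraries after αPD1 + αGITR, at 8.21 TPM at most, in 1 of 5 after IgG2a and in 3 of 15 splenic libraries. It was below the filter in all comparisons and was not tested. Among 7 genes of MHC class II presentation, 4 averaged above 10 TPM, none was called in any comparison by limma, and of the 4 that passed the filter in each none had an unadjusted p under 0.05. Their sum was highest in splenic library 77_a (783 TPM), in which 3 of the 9 members were above 1 TPM.

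Among 8685 features with a mean above 10 TPM in at least 1 group, those most like the mean log2 level of the 9 members over the 27 libraries were Ighv1-78 (r = 0.79), Suco (0.71), Pdcd4 (0.70), Rpl9 (0.70), Gm24515 (0.69), Igkv15-103 (0.68), Trat1 (0.68), Rrm1 (0.68), Arhgap15 (0.67) and Ptcd3 (0.67), where the median r of all these features was 0.21. All libraries enter every r with their own share of the most abundant features. Gm24515 was above 0 only in 79_b (121 TPM), and Ighv1-78 and Igkv15-103 in 1 further library each. Without the 3 libraries that stood apart, r was 0.65 for Suco, 0.39 for Rpl9 and 0.28 for Igkv15-103.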

How the data were processed

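Treg cells were sorted from spleens and CT2A tumors and profiled as bulk Smart-Seq2 libraries. By the study's methods, Tophat placed reads on mm10 and RSEM estimated TPM. Versions and the annotation are not given in the sources used here. The deposited matrix holds a signal that equals TPM + 1: the authors' values are at least 1, and less 1 each library sums to the same total. Thus TPM is the deposited value less 1. One value column has no name (1 in number) and was not used, which leaves 27 of 28 libraries. Hyphens in symbols, written as dots in the matrix, were restored.

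Differences in log2(TPM + 1) were tested by limma 3.58.1 (R 4.3.3; eBayes with an intensity trend) on the groups compared, keeping genes whose mean exceeded 10 TPM in 1 or more of them. p-values were two-sided and adjusted over all genes tested by the Benjamini-Hochberg method. The interaction used all 4 groups. Single members were compared by exact permutation tests over all assignments of the labels (792 or 6435), in Python 3.11.15 with scipy 1.17.1, and correlations by 100000 permutations, adjusted over the 8 relations. The limma script was tested on simulated data. Positions and sequences are from GENCODE M21 (GRCm38, the same assembly as mm10), matched by symbol. No 2 libraries held identical values. Errors are SD. The members, gene lists and tests were chosen with earlier results of these data known. The genes named were drawn from the 9 members, the called and the 4 most abundant genes of each list, the 10 features most like the members and the highest V features. Not every gene that fits this rule is named. Other genes named (Vpreb3, Ebf1, Mzb1, Derl3, Tnfrsf17, Ralgps2, Pou2af1, Igha, Iglc1, Iglc3, Gm30211 and the early B cell genes) were chosen after their values were seen. Alternatives were pseudocounts of 0.1 and 10, other filters, quantile normalization, TMM-type factors (unweighted), rescaling without the 10 most abundant features, a covariate for genes detected, library weights, 1 fit of all groups, a replicate block and leaving out each library. Leaving out the 3 splenic libraries with 7 or more members above 1 TPM was added after seeing the data.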

Additional observations from a re-analysis of the deposited data

Results flagged for a closer look

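In 12 of 36 group and member combinations, the highest library lay farther from its neighbours than the range of the group allows by Dixon's test at the 95% level. For normally distributed values chance flags about 1 in 20 groups, and the rate for skewed TPM with many zeros was not measured. Splenic library 79_b stood out after IgG2a for Cd79a (10.15 TPM), Cd79b (36.51 TPM), Ighd (12.54 TPM), Igkc (414.36 TPM) and Iglc2 (4.34 TPM). After αPD1 + αGITR, splenic library 74_a stood out for Ms4a1 (6.25 TPM) and Iglc2 (36.06 TPM), and 80_a for Jchain (8.82 TPM).

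In GBM the libraries that stood out did so at low levels: after IgG2a, 78_a for Cd79a (0.42 TPM), 79_a for Iglc2 (2.63 TPM) and 76_a for Jchain (1.26 TPM), and after αPD1 + αGITR, 80_a for Jchain (0.73 TPM). Most other values of these groups were 0 or near 0, where a single low value can stand out. What sets these libraries apart was not tested.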

How the results depend on the processing

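Read depth is unknown, 7 of 9 members were too low for the test across genes, and the share of the most abundant features differs between libraries. The cause of the changes below was not tested.

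The count of members called by limma between tissues after αPD1 + αGITR was 1, and 0 with a pseudocount of 0.1 or 10, without the filter, with the filter in every group, under quantile normalization, TMM-type factors, rescaling, the covariate, 1 fit of all groups and either replicate block, and 0 to 1 when a library was left out. With treatment in GBM it was 0, and 1 with library weights. The number of single members with an exact permutation p under 0.05 went from 0 to 1 between tissues after IgG2a with a pseudocount of 0.1 (0 to 1 when a library was left out), from 1 to 0 between tissues after αPD1 + αGITR with a pseudocount of 10 (0 to 1), from 0 to 2 with treatment in the spleen without the 3 libraries that stood apart (0 to 1), a count that is void as a test because these were picked by the members' own values, and from 1 to 2 with treatment in GBM with a pseudocount of 0.1 or rescaling (1 to 3). Members called with treatment in the spleen and in the interaction stayed at 0 under the alternatives run.

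Ighm turned direction between tissues after IgG2a under quantile normalization (-0.30), TMM-type factors (-0.23), rescaling (-0.27) and library weights (-0.76), and ran from -0.34 to 0.55 when a library was left out. After αPD1 + αGITR it turned under quantile normalization (-0.27), TMM-type factors (-0.48), rescaling (-0.072) and the replicate block by full label (-0.18). TMM-type factors also turned Ighm with treatment in GBM (-0.058) and in the interaction (-0.28), where leaving out a library gave -0.25 to 0.64. Igkc with treatment in the spleen ran from -0.93 to 0.71 when a library was left out.

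Labels of both tissues share numbers, but same-labelled libraries did not deviate together (9 correlations, -0.150 to 0.158), so they were not taken as pairs. Such correlations cannot exclude that same-labelled libraries came from a single mouse. Some splenic libraries also share a number with each other, as 79_a to 79_d do. With a replicate block, Igkc between tissues after αPD1 + αGITR was 1.64 (full label, limma adjusted p = 0.459) or 2.22 (label number, limma adjusted p = 0.0872).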
